A study of Austrofundulus limnaeus and Nothobranchius furzeri and Aphyosemion australe with 30 samples.

Results

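At 1062 of the 60359 chromatin accessibility peaks of the African turquoise killifish, Nothobranchius furzeri, more ATAC-seq reads were found in all 7 libraries from embryos past the pre-diapause stage than in both pre-diapause libraries, whether those later embryos had developed directly or had entered diapause. These peaks, called the opened peaks here, make up 1.76% of the table. They were chosen on the values themselves. With every value taken as log2(value + 1), both pre-diapause (Pre-Dia) libraries had to lie below all 7 others, the Pre-Dia mean had to lie at least 1 below the mean of each of the 3 later stages, and those 3 stage means had to lie within less than 1 of each other. The size of the gap to Pre-Dia and the closeness of the 3 later stages are therefore properties of the choice and are given as a description with no test.

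The table holds 9 libraries from wild-type embryos that had received no treatment. Each library was made from whole dissected embryos, pooled at about 10 to a sample. Development (Dev) had 2 libraries from embryos that had skipped diapause and had a fast heartbeat. Per the study's methods, the heart beats in diapause too, but slowly. Diapause at 6 days (Dia 6d) had 2 libraries, diapause at 1 month (Dia 1m) had 3, and Pre-Dia had 2 from embryos with a Kupffer's vesicle. Per the study's methods, the Pre-Dia embryos came from the first clutches of young parents, most of whose offspring were expected to bypass diapause, so these pools stand for an earlier stage of mainly direct development and are not known forerunners of the diapause embryos. The labels name the libraries of a stage as separate samples and do not say whether they came from separate clutches, so the adjusted p-values behind the calls below measure only the spread between these pools. In a pool of whole embryos, more cells of a type with an open site and more openness per cell cannot be told apart. Defining markers of the tissue were not analysed here, because no gene annotation of this assembly was used here.

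ATAC-seq uses a transposase that inserts sequencing adapters into DNA not covered by nucleosomes, so read numbers in a region report how accessible its chromatin is, and promoters and enhancers in use stand out as peaks. Kupffer's vesicle is a transient ciliated organ of the fish embryo that helps to set the left-right axis. After it has gone, a turquoise killifish embryo either continues directly to hatching or enters diapause, a suspended state in which growth and organ formation nearly stop.

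The deposited values were reads per peak divided by 1 factor for each library, so they are called normalized reads. Reads in peaks, in units of 1000000 (M), came to 6.24 and 5.18 M in the Dev libraries, 3.93 and 3.22 M in Dia 6d, 3.45, 3.59 and 3.94 M in Dia 1m, and 3.05 and 2.26 M in Pre-Dia. Both Pre-Dia libraries were thus shallower than every later library, and depth moved with the contrast that chose the peaks. With all libraries thinned to the depth of the shallowest, 1050 peaks met the rule, and 766 of these were among the 1062. With scaling to total reads in peaks, fewer peaks met it, 718, of which 716 were among the 1062. Across all peaks the median normalized reads lay between 32.2 and 34.5 in every library.

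Both Pre-Dia libraries lay below all 7 later libraries at 4881 peaks, or 8.09% of the table, which is the background for this ordering. Of these, 1159 also had a Pre-Dia mean at least 1 below each later stage, and 1062 of those had later stages within less than 1 of each other. Another 303 peaks met both limits on the stage means without the separation. The mirror image of the rule, with Pre-Dia above all 7 libraries and otherwise the same limits, was met by 485 peaks (0.804%), here called the closed peaks. Both orderings of the libraries were about equally frequent, since Pre-Dia lay above all 7 later libraries at 4780 peaks (7.92%).

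The opened peaks had median values of 54.2 and 38.3 normalized reads in Dev, 53.8 and 52.5 in Dia 6d, 47.2, 64.9 and 38.9 in Dia 1m, and 18.8 and 16.5 in Pre-Dia. The later medians were above the usual level of a peak and the Pre-Dia medians below it. The closed peaks had medians between 13.9 and 20.8 in the later libraries, against 40.9 and 48.0 in Pre-Dia. A typical opened peak thus held reads at the vesicle stage too, and 38 had at most 3 reads in both Pre-Dia libraries. Of the opened peaks, 7 had 1 read in each Pre-Dia library, the lowest value in the table, while 543 had at least 10 reads in each. Counted as reads, the median opened peak had 92.5 and 57 in Dev, 60 and 47 in Dia 6d, 45, 56 and 43 in Dia 1m, and 17 and 11 in Pre-Dia.

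**Figure D1:**
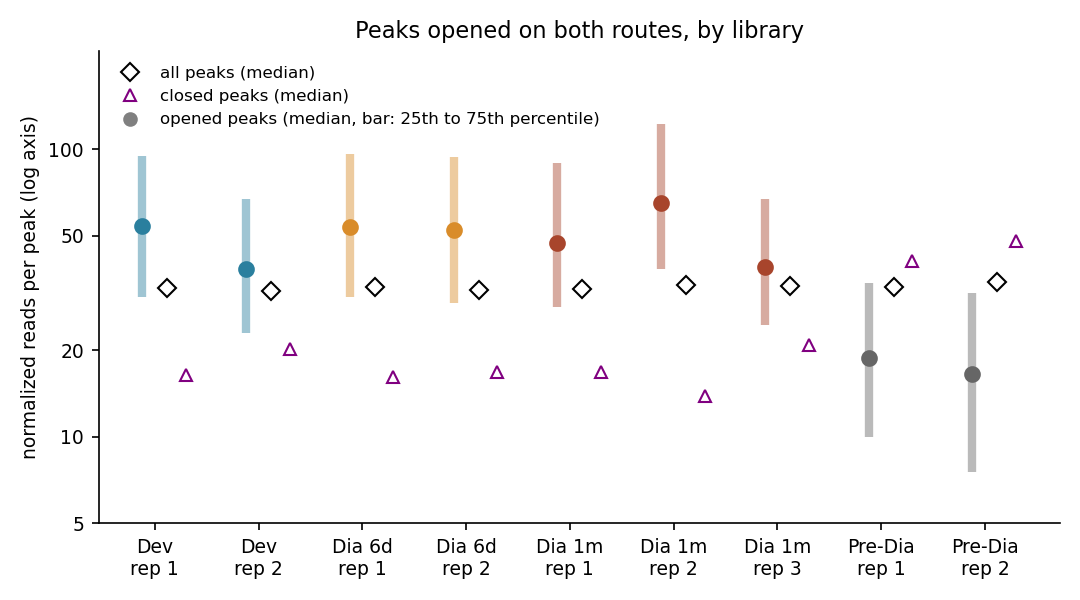
Median normalized reads per peak (y axis, log scale) in each library (x axis), as filled points for the 1062 opened peaks with bars spanning their quartiles, open diamonds for all 60359 peaks and open triangles for the 485 closed peaks. The opened medians of the 7 later libraries lie between 38.3 and 64.9, and those of the 2 Pre-Dia libraries are 18.8 and 16.5.

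The mean of the 3 later stages exceeded the Pre-Dia mean by a median of 1.46 on the log2(value + 1) scale, with a range of 1.02 to 3.46, while the median of this difference over all peaks was -0.02. By stage, the median difference from Pre-Dia was 1.34 in Dev, 1.55 in Dia 6d and 1.48 in Dia 1m. The smallest of the 3 differences was under 1.1 at 281 of them (26.5%) and at least 2 at 38 (3.58%), with a median of 1.22 and a maximum of 2.93. Just inside the limit, peak_41542 had a smallest difference of 1.000, and just outside it, peak_19905 had 0.999. At the limit on the span of the later stages, peak_44364 lay just inside with 0.992 and peak_46556 just outside with 1.004.

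**Figure D2:**
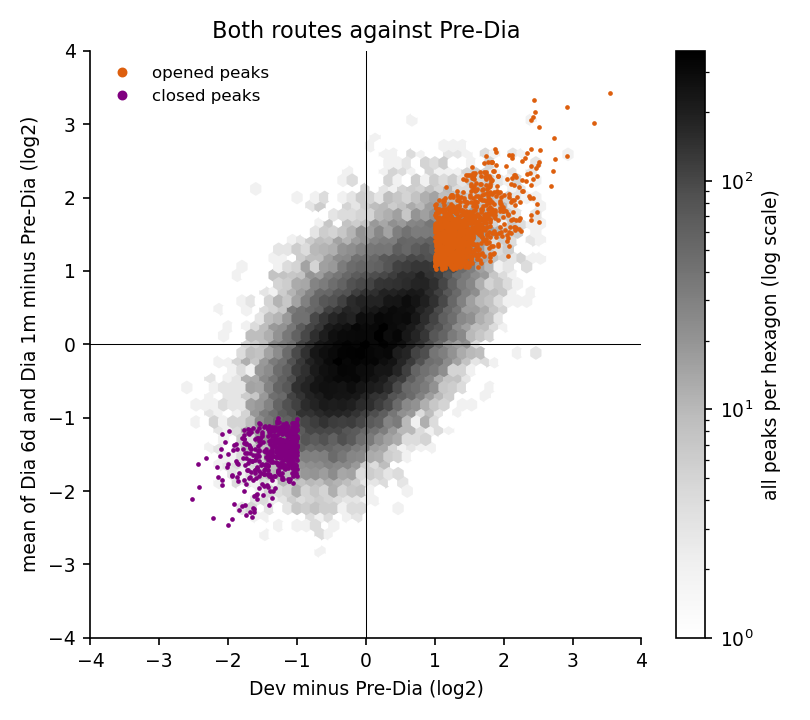
Difference of Dev from Pre-Dia (x axis, log2) against the mean difference of Dia 6d and Dia 1m from Pre-Dia (y axis, log2) for all 60359 peaks, in grey hexagons shaded by their number, with the 1062 opened peaks in orange and the 485 closed peaks in purple. The opened peaks fill the corner where both differences are at least 1, and they thin out quickly away from it, with medians of 1.34 for Dev, 1.55 for Dia 6d and 1.48 for Dia 1m.

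Among the later stages the opened peaks differed little, as the rule required. The span between the highest and lowest of the 3 stage means had a median of 0.40 and stayed under 0.5 at 654 peaks (61.6%). Within that limit, diapause was more often on top. Dia 6d was the highest stage at 490 peaks (46.1%), Dia 1m at 360 (33.9%) and Dev at 212 (20.0%), against 26.3%, 34.9% and 38.8% of all peaks. The lowest of the 3 later stages was Dev at 562 opened peaks (52.9%), against 37.0% of all peaks. The most frequent order, Dia 6d above Dia 1m above Dev, held at 317 peaks (29.8%), and the least frequent, Dev above Dia 1m above Dia 6d, at 80 (7.53%).

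Libraries of the same stage stood at different heights at these peaks. The first Dev library exceeded the second by a median of 0.46 on the log2 scale, against 0.03 over all peaks, and the second Dia 1m library exceeded the third by 0.72, against 0.14 over all peaks. The first library exceeded the second by a median of 0.03 in Dia 6d and 0.18 in Pre-Dia. Differences of opposite sign cancel in these medians. Without regard to sign, the median difference between replicates was 0.28 in Dia 6d, 0.48 in Dev and 0.54 in Pre-Dia. Over all peaks these were 0.35, 0.35 and 0.39. For the pairs of Dia 1m it was 0.47 to 0.77, against 0.50 to 0.80 over all peaks. Dia 1m replicate 3 was the lowest of the 7 later libraries at 403 opened peaks (37.9%), and Dev replicate 2 at 352 (33.1%). Dia 1m replicate 2 was the highest at 526 (49.5%). The spread within Dev and Dia 1m was thus larger than the median differences of 0.17 for Dia 6d minus Dev and -0.05 for Dia 1m minus Dia 6d, so the order of the 3 later stages is not separated from the spread between libraries.

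The number of opened peaks depended on single libraries. Without Dev replicate 1, 716 peaks met the rule, and without Dev replicate 2, 1496 did. Without Dia 1m replicate 2 or replicate 3 the number was 857 or 1380, without Dia 1m replicate 1 it was 1086, and without the first or second Dia 6d library it was 999 or 1050. Leaving out a Pre-Dia library changed it most, to 2236 without replicate 1 and 1733 without replicate 2. Of the 1062 opened peaks, 821 and 680 were still among these larger sets.

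To have a measurement that the choice had not used, 1 later library and 1 Pre-Dia library were left out together, the rule was applied to the other 7, and the later library left out was set against the Pre-Dia library left out. This was done for all 14 such pairs, after the results above were known, and the peaks chosen on fewer libraries were more numerous, from 1282 to 2589. Of these, 472 to 840 were opened peaks, so most peaks of each choice lay outside the set. The values below describe those choices and are not a check of the opened peaks alone. The later library was the higher one at 64.9% to 84.0% of the chosen peaks, against 49.7% to 50.7% of all peaks. Its median difference was 0.70 and 0.80 on the log2 scale for Dev replicate 1, 0.41 and 0.40 for Dev replicate 2, 0.74 to 0.85 for the Dia 6d libraries, 0.68 and 0.71 for Dia 1m replicate 1, 1.07 and 1.16 for Dia 1m replicate 2, and 0.29 and 0.38 for Dia 1m replicate 3. In all 14 pairs the median difference at the chosen peaks was thus above 0, and it was smallest for Dia 1m replicate 3 and Dev replicate 2. The 14 pairs share their libraries and are not independent of each other.

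Fitted over all 60359 peaks with limma, Dev had 46 peaks higher than Pre-Dia at an adjusted p under 0.05 (0.0762% of peaks), Dia 6d had 1716 (2.84%) and Dia 1m had 2850 (4.72%). Among the opened peaks, 20 were higher in Dev (1.88%), 508 in Dia 6d (47.8%) and 714 in Dia 1m (67.2%), and the lower calls included none of them. These contrasts are the ones that chose the peaks, so nothing is read from the shares. A set of 18 opened peaks was called higher in all 3 stages, of 21 in the table (0.0348%), and 287 (27.0%) were called higher in no stage, against 94.3% of all peaks. DESeq2 on the recovered reads called 146 opened peaks (13.7%) higher in all 3, of 159 in the table (0.263%). It called 363 (34.2%) higher in no stage, against 93.2% of all peaks. DESeq2 gave an adjusted p to 22912 peaks for Dev, 38125 for Dia 6d and 48656 for Dia 1m. Peaks without one were counted as not called. The 3 contrasts share the same 2 Pre-Dia libraries. The Dev count was the least stable, ranging from 0 to 3568 peaks in either direction when single libraries were left out, and its highest value came without Dia 1m replicate 3. Of the other 2, Dia 6d ranged from 35 peaks without its own second library to 8230 without Dia 1m replicate 3, and Dia 1m from 719 without Pre-Dia replicate 2 to 12519 without its own replicate 3.

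The opened peak with the largest smallest difference, peak_44364 on chromosome sequence NC_029665.1 (26845740 to 26845956, assembly Nfu_20140520), had 25.8 and 25.5 normalized reads in Dev, 37.7 and 30.2 in Dia 6d, 29.4, 12.7 and 11.7 in Dia 1m, and 1.1 and 1.5 in Pre-Dia. Those last values are 1 read in each library, so this peak was at the lowest value of the table in both Pre-Dia libraries, and its 203 later reads against 2 earlier ones gave a ratio of 19.6 with a 95% counting interval of 5.36 to 163. Its later stages spanned 0.99, which also made it the opened peak nearest to the limit on that span. Dia 1m replicates 2 and 3 held less than the other later libraries.

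At peak_45895 (NC_029666.1, 34312356 to 34312607) the values were 29.3 and 20.8 in Dev, 41.3 and 36.9 in Dia 6d, 29.4, 23.2 and 21.7 in Dia 1m, and 1.1 and 4.50 in Pre-Dia. At peak_30895 (NC_029658.1, 28725589 to 28725895) they were 34.6 and 28.9 in Dev, 33.2 and 31.3 in Dia 6d, 26.2, 31.3 and 9.94 in Dia 1m, and 3.31 and 1.5 in Pre-Dia. Both had 4 reads in all in Pre-Dia, and the first was highest in Dia 6d while the second stood at similar heights in Dev and Dia 6d. Ratios of later to earlier reads were 11.2 (95% counting interval 4.32 to 41.5) and 11.1 (4.28 to 41.1). Each had 1 Pre-Dia library at 1 read, so the same limit applies.

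The next peak in this order, peak_45108 (NC_029666.1, 6470098 to 6470557), rested on 1 Pre-Dia library. It had 63.9 and 61.1 in Dev, 70.0 and 81.6 in Dia 6d, 52.5, 95.0 and 38.9 in Dia 1m, and 35.4 and 1.5 in Pre-Dia. The first Pre-Dia value was close to the lowest later value, and the second was a single read.

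The remaining members of this group were likewise small peaks with few Pre-Dia reads. peak_13651 (NC_029652.1, 56181761 to 56182165) had 28.1 and 12.1 in Dev, 37.7 and 16.8 in Dia 6d, 31.5, 40.5 and 13.6 in Dia 1m, and 1.1 and 4.50 in Pre-Dia. peak_14867 (NC_029653.1, 6061950 to 6062271) had 11.7 and 11.4 in Dev, 12.6 and 21.2 in Dia 6d, 14.7, 30.1 and 28.9 in Dia 1m, and 1.1 and 1.5 in Pre-Dia. The first of these split within every later stage, whereas the second was highest in Dia 1m. peak_36681 (NC_029661.1, 15191729 to 15191928) was the most even, with 26.9 and 22.8 in Dev, 19.7 and 25.7 in Dia 6d, 19.9, 20.9 and 19.0 in Dia 1m, and 1.1 and 6.01 in Pre-Dia. peak_13316 (NC_029652.1, 49207300 to 49207520) had 35.2 and 16.8 in Dev, 57.4 and 41.4 in Dia 6d, 50.4, 62.6 and 25.3 in Dia 1m, and 7.73 and 1.5 in Pre-Dia. Dev replicate 2 and Dia 1m replicate 3 were its lowest later libraries, as at many other opened peaks.

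**Figure D3:**
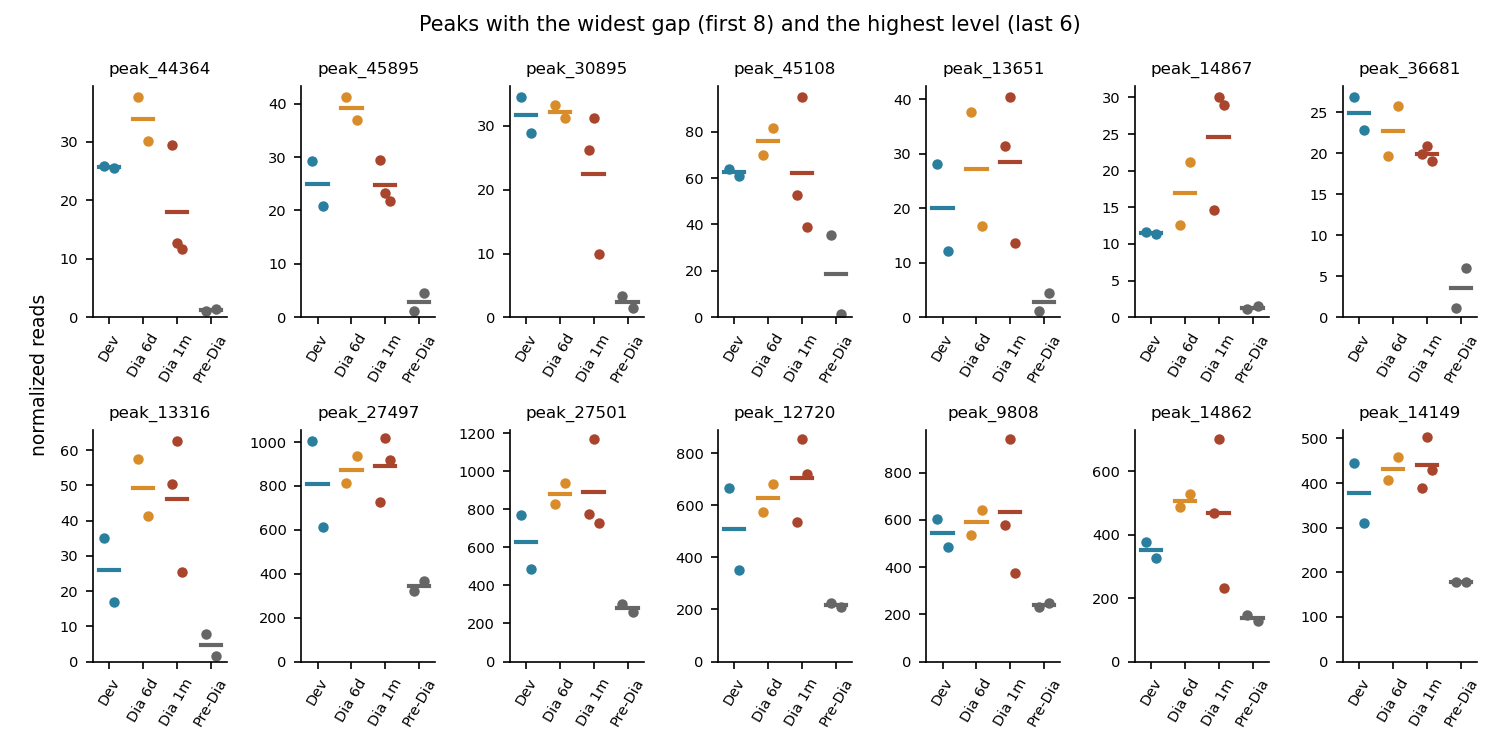
Normalized reads (y axis, linear from 0, scaled for each panel) in each of the 9 libraries at the 8 opened peaks with the largest smallest difference and the 6 with the highest level, with one point for each library and a bar at each stage mean. The 8 peaks with the largest smallest difference lie between 9.94 and 95.0 in the later libraries and between 1.1 and 35.4 in Pre-Dia, and the 6 with the highest level lie between 233 and 1170 in the later libraries and between 129 and 368 in Pre-Dia.

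At the strongly accessible end, the opened peaks had more than 100 normalized reads in every library and modest ratios. peak_27497 (NC_029657.1, 17407433 to 17409153), the widest opened peak at 1721 bases, had 1006 and 613 normalized reads in Dev, 812 and 936 in Dia 6d, 728, 1019 and 920 in Dia 1m, and 321 and 368 in Pre-Dia. Its neighbour peak_27501 (17426060 to 17427145) had 772 and 487 in Dev, 826 and 940 in Dia 6d, 773, 1170 and 727 in Dia 1m, and 300 and 261 in Pre-Dia. Both peaks were thus above the median peak of the table in Pre-Dia, and Dev replicate 2 was the lowest later library at each. Their ratios were 2.51 (95% counting interval 2.30 to 2.75) and 2.75 (2.50 to 3.04).

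The same form was seen at the other highly accessible peaks. peak_12720 (NC_029652.1, 36497665 to 36498655) had 666 and 350 in Dev, 572 and 681 in Dia 6d, 537, 855 and 720 in Dia 1m, and 225 and 209 in Pre-Dia. peak_9808 (NC_029651.1, 54895509 to 54896451) had 605 and 486 in Dev, 535 and 643 in Dia 6d, 578, 944 and 377 in Dia 1m, and 230 and 249 in Pre-Dia. The rule kept the later libraries above Pre-Dia at each, and Dia 1m replicate 2 was the highest. peak_14862 (NC_029653.1, 6007455 to 6008217) had 378 and 327 in Dev, 486 and 528 in Dia 6d, 469, 701 and 233 in Dia 1m, and 148 and 129 in Pre-Dia. peak_14149 (NC_029652.1, 66993131 to 66993839) had 444 and 311 in Dev, 406 and 458 in Dia 6d, 388, 502 and 429 in Dia 1m, and 178 and 179 in Pre-Dia. Across the 6 the ratio lay between 2.32 and 3.04, so counting error was small beside the difference and the spread between libraries set the precision.

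Level and width were not part of the rule except through the values. Opened peaks had a median width of 412 bases, against 316 bases for closed peaks and 421 bases for all peaks. Opened peaks made up 1.23% of the lowest and 2.34% of the highest of 5 equal classes of mean level. Closed peaks went the other way, with 1.40% and 0.108%. That mean was taken over all 9 libraries, 7 of them later ones. The rule places these above Pre-Dia at opened and below it at closed peaks, so the opposite trends can follow from the choice. Across 5 classes of width the opened share moved less, between 1.52% and 2.02%.

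Opened peaks were unevenly placed in the genome. On the 19 assembled chromosomes 997 of 46951 peaks were opened (2.12%), against 65 of 13408 on unplaced scaffolds (0.485%), while closed peaks were 0.750% and 0.992% of the same peaks. These shares depend on the scale, since 94 further unplaced peaks met the rule only after the regional centring described below. The highest share of any chromosome was on NC_029661.1, with 52 of 1659 (3.13%), and the lowest on NC_029649.1, with 43 of 4456 (0.965%). With each chromosome divided into 5 equal stretches from its first base, the opened shares were 1.81%, 2.50%, 2.45%, 2.67% and 1.38%, so both outer stretches held fewer. The median difference from Pre-Dia of the peaks in these stretches was -0.01, 0.08, 0.10, 0.14 and -0.10. It too was lowest in both outer stretches, so the pattern was not particular to the opened peaks. The closed peaks had 0.815%, 0.544%, 0.644%, 0.621% and 1.05%, with both outer stretches higher.

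Opened peaks lay near other opened peaks more often than peaks at large did, although most had none close by. Another opened peak lay within 10 kb, between centres, at 160 of them (15.1%). The median distance to the next was 94.0 kb at the 1013 with another on the same sequence. Of peaks within 2 kb of an opened peak other than themselves, 48 of 409 were opened (11.7%), against 107 of 17997 (0.595%) of peaks more than 1000 kb from one. Between these, the share fell with each step of distance, with 11.0% at 2 to 5 kb, 6.14% at 10 to 20 kb, 4.64% at 50 to 100 kb and 2.21% at 200 to 500 kb. Closed peaks also lay near each other. Among peaks within 2 kb of another closed peak, 4 of 138 were closed (2.90%). The closed share was 1.43% at 2 to 5 kb, 3.81% at 5 to 10 kb and 3.11% at 10 to 20 kb. Beyond 1000 kb it was 0.436%, against 0.804% of all peaks.

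The peaks around them moved the same way without meeting the rule. Peaks outside the set and within 2 kb of an opened peak had a median difference from Pre-Dia of 0.68, and 88.4% of them had a difference above 0. At 50 to 100 kb the median was 0.35, with 72.2% above 0, and beyond 1000 kb it was -0.20, with 36.8% above 0. Over all peaks outside the set the median was -0.03, with 47.8% above 0. The shift at neighbouring peaks thus was still present at 50 to 100 kb and faded with distance. Within 100 kb of an opened peak there were 8270 peaks outside the set, whose medians were 45.7 and 36.2 in Dev, 44.9 and 42.5 in Dia 6d, 39.9, 49.8 and 32.5 in Dia 1m, and 30.9 and 31.5 in Pre-Dia. Dia 1m replicate 3 and Dev replicate 2 lay nearest to Pre-Dia here, as at the opened peaks themselves. These neighbours come from the same libraries and depths as the opened peaks, so they are not a separate measurement of the stages, and the cause of the shared shift was not tested. Per the study's methods, nucleosome banding was weak in some of its libraries, which its authors believe to come from fragile nuclei and too much cutting by the transposase. Which libraries these were was not analysed here, and their part in the shift was not tested.

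**Figure D4:**
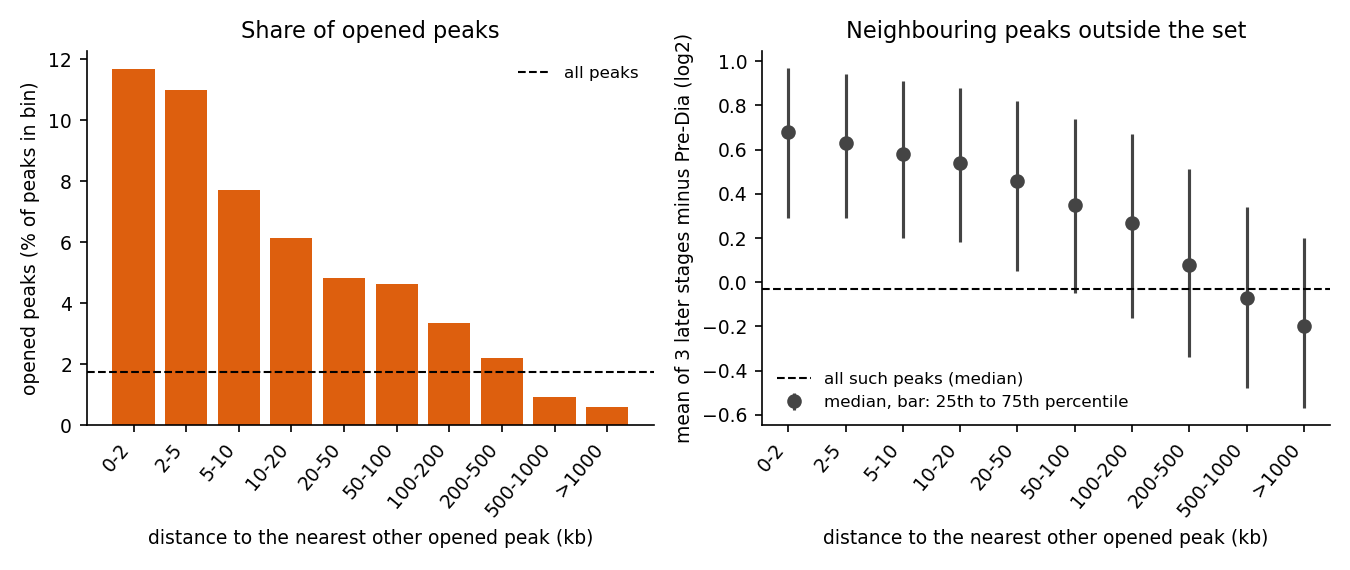
Left, percent of peaks that are opened peaks by distance to the nearest other opened peak (bins in kb), with all peaks as a dashed line at 1.76%, is 11.7% within 2 kb and 0.595% beyond 1000 kb. Right, the median difference of the later stages from Pre-Dia (log2) at peaks outside the set in the same bins, with bars spanning the quartiles, is 0.68 within 2 kb and -0.20 beyond 1000 kb.

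Divided into windows of 1 Mb, the chromosomes had 1012 windows with at least 20 peaks. No opened peak fell in 568 of them (56.1%), and 41 windows (4.05%) held 5 or more, together 245 opened peaks (23.1%) among 3.41% of the table's peaks. The other peaks of a window were shifted further with up to 3 opened ones and not beyond that. Their median difference from Pre-Dia as a median over windows was -0.13 with no opened peak, 0.17 with 1, 0.34 with 2, 0.51 with 3, 0.45 with 4 and 0.51 with 5 or more, and all 41 of the richest windows were above 0, from 0.18 to 0.96. In those 41 windows, peaks outside the set had medians of 43.4 and 32.9 in Dev, 44.9 and 42.5 in Dia 6d, 39.9, 51.0 and 30.7 in Dia 1m, and 27.6 and 30.0 in Pre-Dia. Dev replicate 2 and Dia 1m replicate 3 were within a few normalized reads of the second Pre-Dia library there, and the other 5 later libraries were not. The closed share in windows with no opened peak was 1.09%, and in the 41 richest it was 0.0485%.

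**Figure D5:**
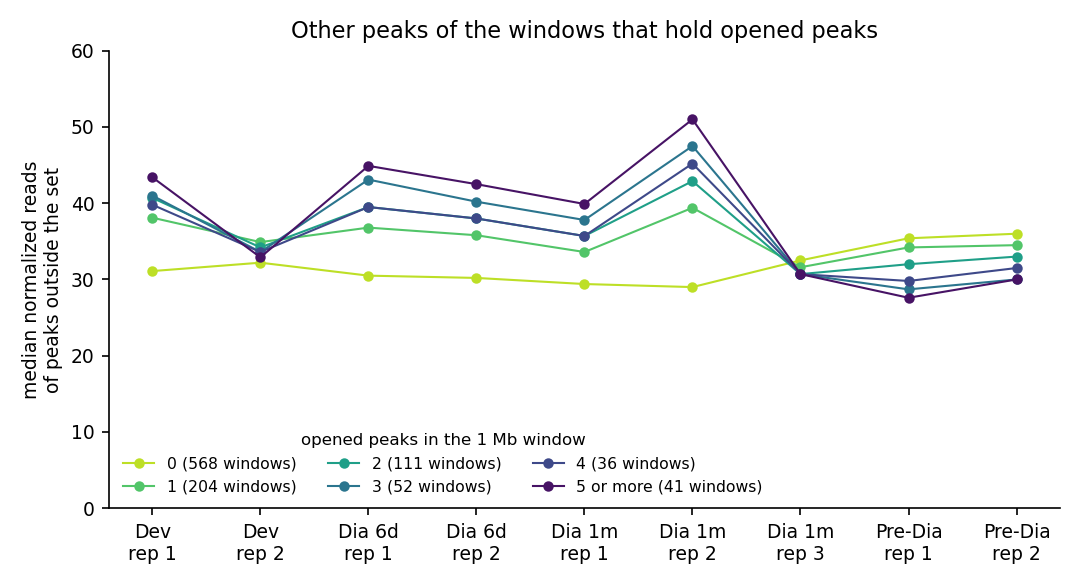
Median normalized reads in each library at peaks outside the set, in 1 Mb windows grouped by their number of opened peaks, with libraries on the x axis and a line joining the points of each window group. In windows with 5 or more opened peaks the Dev, Dia 6d and Dia 1m libraries span 30.7 to 51.0 and Pre-Dia is at 27.6 and 30.0, whereas in windows with none the later libraries span 29.0 to 32.5 and Pre-Dia is at 35.4 and 36.0.

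The 4 windows with the most opened peaks held 9 each and no closed peak. One on NC_029650.1 (29000001 to 30000000) had 41 peaks, and its 32 peaks outside the set had medians of 24.0 and 21.5 in Dev, 48.4 and 47.5 in Dia 6d, 51.9, 54.4 and 42.0 in Dia 1m, and 22.1 and 25.5 in Pre-Dia. In this window the surrounding peaks were higher in diapause alone, with Dev at the level of Pre-Dia, although its 9 opened peaks met the rule on both routes. The others were on NC_029653.1 (13000001 to 14000000), NC_029658.1 (43000001 to 44000000) and NC_029663.1 (8000001 to 9000000). There, 24 of 32, 35 of 39 and 36 of 45 peaks outside the set were higher in the later stages. Over all peaks outside the set the share was 47.8%.

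Short runs of opened peaks carried the grouping to the finest scale. Joining opened peaks that lay within 10 kb of the next left 897 alone, and gave 64 pairs, 7 runs of 3 and 4 runs of 4. The first of the 4, on NC_029652.1 (36482020 to 36498655), spanned 16.6 kb and had no peak between its members. From its first to its last peak the ratios of later to earlier reads were 2.46 at peak_12717, 3.99 at peak_12718, 2.89 at peak_12719 and 2.79 at peak_12720. At peak_12718 the values were 122 and 93.9 in Dev, 162 and 199 in Dia 6d, 176, 273 and 77.7 in Dia 1m, and 38.7 and 34.5 in Pre-Dia. Each member of this run had a lower mean in Dev than in Dia 6d and Dia 1m, but the libraries of these stages overlapped. At peak_12718, Dev replicate 1 (122) exceeded Dia 1m replicate 3 (77.7).

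The run on NC_029653.1 (13250951 to 13272946) spanned 22.0 kb, again with no other peak inside it, and lay in 1 of the 4 richest windows. Its ratios were 2.43 at peak_15217, 2.06 at peak_15218, 2.68 at peak_15219 and 4.82 at peak_15220. The last of these had 336 and 219 in Dev, 538 and 481 in Dia 6d, 412, 515 and 226 in Dia 1m, and 80.6 and 72.1 in Pre-Dia, with Dev replicate 2 and Dia 1m replicate 3 again lowest among the later libraries. At peak_15217 they were 451 and 395 in Dev, 394 and 459 in Dia 6d, 386, 553 and 257 in Dia 1m, and 205 and 119 in Pre-Dia. Neighbours in 1 run thus differed in the size of their difference and in the order of the stage means. That order is not separated from the spread between libraries.

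The other 2 runs each enclosed a peak that did not meet the rule. On NC_029656.1 (11690427 to 11704164, 13.7 kb), peak_24574, peak_24575, peak_24577 and peak_24578 had ratios of 2.44, 2.61, 3.01 and 2.91, and the enclosed peak_24576 had a difference of 0.36. At peak_24577 the values were 85.0 and 34.2 in Dev, 75.4 and 58.1 in Dia 6d, 44.1, 59.1 and 51.5 in Dia 1m, and 16.6 and 24.0 in Pre-Dia. The run on NC_029658.1 (43679019 to 43699800, 20.8 kb) lay in another of the richest windows. Its members peak_31401, peak_31402, peak_31403 and peak_31405 had ratios of 3.27, 3.53, 4.06 and 2.93, and the enclosed peak_31404 had a difference of 0.75. At peak_31401 the values were 70.9 and 38.3 in Dev, 80.7 and 80.5 in Dia 6d, 87.1, 115 and 33.4 in Dia 1m, and 22.1 and 19.5 in Pre-Dia.

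Because neighbouring peaks shifted alike, the rule was also applied after the median of each library's peaks in the same 1 Mb window had been subtracted from its log2 values, with unplaced scaffolds pooled. This step was chosen after the shift had been seen. Then 684 peaks met the rule, of which 386 were opened peaks, 36.3% of the 1062 and 56.4% of the 684. At 807 of the 1062 (76.0%) both Pre-Dia libraries remained below all 7 others, and the median difference was 1.12. The opened peaks were chosen on these same values, so a remaining difference can follow from the choice and nothing is read from its size. The other 676 opened peaks no longer met some part of the rule.

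Relative to its window, the median opened peak lay at 0.40 and 0.16 in Dev, 0.36 and 0.31 in Dia 6d, 0.35, 0.47 and 0.25 in Dia 1m, and -0.60 and -0.88 in Pre-Dia. The opened peaks thus lay mainly low in Pre-Dia and slightly above their surroundings in the later stages. The rule asked for low Pre-Dia values, so this form can follow from the choice and nothing is read from it. The 386 that met the rule both ways had later values close to their surroundings, from 0.00 in Dev replicate 2 to 0.38 in Dia 1m replicate 2, against -1.19 and -1.51 in Pre-Dia. They were narrower, with a median width of 344 bases against 448 for the other 676. Their medians in Pre-Dia were 14.4 and 10.5 normalized reads, against 21.0 and 19.5 for the others. The 386 met the rule on both scales, so their lower Pre-Dia values can follow from the choice too. Of the unplaced opened peaks, 60 of 65 were among them. Another 298 peaks met the rule only after centring, and 94 of these were unplaced. Unplaced scaffolds were centred as 1 pool and not by 1 Mb window, so these numbers are not compared with those on chromosomes.

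Of the 8 peaks with the largest smallest difference, 5 still met the rule after centring, with differences for all 8 between 2.16 and 2.87. Of the 6 most accessible, only peak_14862 did, and of the 16 peaks in runs only peak_12718 and peak_15220 did. The 6 kept differences of 0.77 to 1.54 and the 16 kept 0.23 to 1.36. The 8 were picked for their large differences, so the 3 ranges are not compared with each other.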

How the data were processed

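The authors trimmed reads with Trim Galore 0.4.1, aligned them with Bowtie2 2.2.5 to assembly Nfu_20140520, marked duplicates with Picard 2.22.1, removed these and ambiguously mapped reads with SAMtools 1.5, shifted reads for the transposase offset with deepTools 3.2.1 and called peaks with MACS2 2.1.1.20160309. The deposited signal is a table of reads per consensus peak that the authors divided by 1 factor for each library, although it is named for RPKM. Whole reads were recovered for 100.0000% of values in every library at a tolerance of 0.01. No value lay below 1 read, so 1 read may stand for 0. Tables of other species were not used here.

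Differences were fitted with limma 3.58.1 (R 4.3.3) on log2(value + 1) over all 60359 peaks and 4 stages, with a Benjamini-Hochberg adjusted p under 0.05. On recovered reads, edgeR 4.0.16 called 76, 2462 and 5143 peaks and DESeq2 1.42.0 called 580, 3056 and 5483 for Dev, Dia 6d and Dia 1m against Pre-Dia, where limma called 52, 2455 and 4996. A ratio is later over Pre-Dia reads per normalized depth, and its exact 95% interval covers counting error only. Both take 1 read as 1, so they do not hold where it stands for 0. Fold changes on this scale understate those of low peaks.

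Named peaks are the 8 with the largest smallest difference, the 6 with the highest level, those nearest each limit and the longest runs. The rule, names and tests were chosen with earlier results of these data known. The test script was checked on simulated data. Coordinates are as deposited, with an end minus start of 1 less than the width, and whether starts count from 0 or 1 is not given in the sources used here. No genome or annotation of this assembly was used, so genes, motifs, base composition and distances to start sites were not analysed here. Alternatives were the pseudocount, scaling, thinning, a filter, each library left out, a replicate block, the 2 stages alone, count tools and regional centring.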

Additional observations from a re-analysis of the deposited data

How the results depend on the processing

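The number of opened peaks, 1062, stayed within 1.5 times under a pseudocount of 0.5 and with 1 read set to 0. It also did with scaling to total reads in peaks (718 peaks, 716 of them shared), quantile normalization (1066, 925 shared) and thinning (1050, 766 shared). A filter on a mean value of 10, which could only remove peaks, left 1050. The number was 658 with a pseudocount of 5 and 684 with centring within 1 Mb windows. With single libraries left out it was from 716 to 2236.

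Called peaks for Dev against Pre-Dia, 52, were 96 with a pseudocount of 5, 0 with scaling to total reads in peaks, 170 with quantile normalization, 0 with thinning, 6110 with only the 2 stages fitted, 580 with DESeq2, 2 with centring, and 0 to 3568 with single libraries left out. For Dia 6d, 2455 became 4094 with quantile normalization, 1366 with thinning, 10466 with only the 2 stages, 342 with centring, and 35 to 8230 with single libraries left out. For Dia 1m, 4996 became 1585 with only the 2 stages, 2607 with centring, and 719 to 12519 with single libraries left out.

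With the replicate number as a block, the counts were 2903, 7416 and 11604. None of 12 same-number pairs of libraries in different stages had deviations from the stage mean correlated above 0.1 (-0.23 to 0.04). Of 18 different-number pairs, 2 did (-0.21 to 0.23). In a stage of 2 libraries the deviations mirror each other, so the pairs are not independent. These correlations cannot show whether libraries with the same number share a clutch or batch.

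The 30 named opened peaks had a positive difference in all 540 values under 18 alternatives, from 0.23 to 4.72. The peaks were chosen on these same values, and the rule fixes this sign when a library is left out or the pseudocount is changed. Nothing is read from the sign under any of the alternatives. Of the 540 values, 48 moved by more than the spread between replicates, 21 of them with centring (0.23 to 2.87). Centring and the setting of 1 read to 0 were chosen after seeing the data. The share of opened peaks near start sites was not run. With 17 and 11 reads at the median opened peak, the 2 Pre-Dia libraries limit the precision of every difference. The causes of these changes were not tested.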
